A study of Mus musculus with 8 samples.

Results

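The genes described here mark the neurons and glia of the enteric nervous system, the nerve network inside the gut wall. They are a list of 40 names of neuronal identity, transmitters, neurotrophic signalling and glia. The rule is the gene name and uses no threshold on a measured value, but the list was drawn up with earlier results of these data known. Of the 40, 36 were found among the 16130 genes of the count table, and 29 of these had enough reads to be tested. Slc18a3, Phox2a, Foxd3 and Erbb4 were not analysed here.

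The RNA came from distal colon of mice labelled Tcf4Het/+ ApcMin/+, which carry a heterozygous Tcf4 allele and the truncating ApcMin allele that causes intestinal adenomas. One group had spent 4 months in environmentally enriched housing (EE, n = 4) and the other 4 months in conventional, non-enriched housing (NE, n = 4), and both carried the same alleles. Total RNA of whole tissue was sequenced after depletion of ribosomal RNA. Nothing in the labels ties a library to an animal of its own, so the p-values measure the spread between these samples, which may be technical. In whole tissue, fewer cells of a type and less RNA per cell cannot be told apart.

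Totals ran from 4735764 to 6266902 counts in EE libraries and from 6120185 to 10586851 counts in NE libraries. All 8 distal colon markers were present, among them the carbonic anhydrase Car1 at 2116 ± 1556 CPM in EE and 3493 ± 1581 CPM in NE (SD, n = 4 each), where CPM are counts relative to the scaled size of the library. Library EE 4 stood apart. It held the lowest of the 8 values in 26.0% of all 14311 tested genes, and its 12 smooth muscle markers summed to 717 CPM, against 2431 to 4594 CPM in the other EE libraries. The authors' deposited table has positive log2 values where the NE columns are higher, opposite in sign to EE minus NE for 97.8% of tested genes, and its header does not name the numerator. EE and NE below mean the libraries so labelled, and fold changes are EE minus NE.

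Enteric neurons sit in ganglia between the muscle layers (the myenteric plexus) and under the mucosa (the submucosal plexus), and run motility, secretion and blood flow without input from the brain. Inhibitory motor neurons use nitric oxide and VIP, excitatory motor neurons use acetylcholine and tachykinins, and glia surround them all. Both lineages descend from the neural crest, whose migration and survival depend on GDNF acting through RET.

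Most of these genes stood lower in EE than in NE, but the EE libraries did not act as one group. Of the 29 tested genes 27 had a negative log2 fold change, with a median of −0.57, while over all tested genes 49.7% were negative and the median was 0. EE 1 and EE 2 lay within or above the NE range for most genes, with 7 and 5 of the 29 genes below every NE library. EE 3 lay below every NE library in 25 genes and EE 4 in 27. Over all tested genes, 26.1%, 16.8%, 31.0% and 36.4% lay below every NE library in EE 1 to EE 4. EE 4 held the lowest of the 8 values in 24 of the 29 genes. Among NE libraries, NE 4 was the lowest in 26 of the 29 genes, against 33.0% of all tested genes. The heat map of the 36 genes shows these 2 low EE libraries and the paler NE 4.

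**Figure D1:**
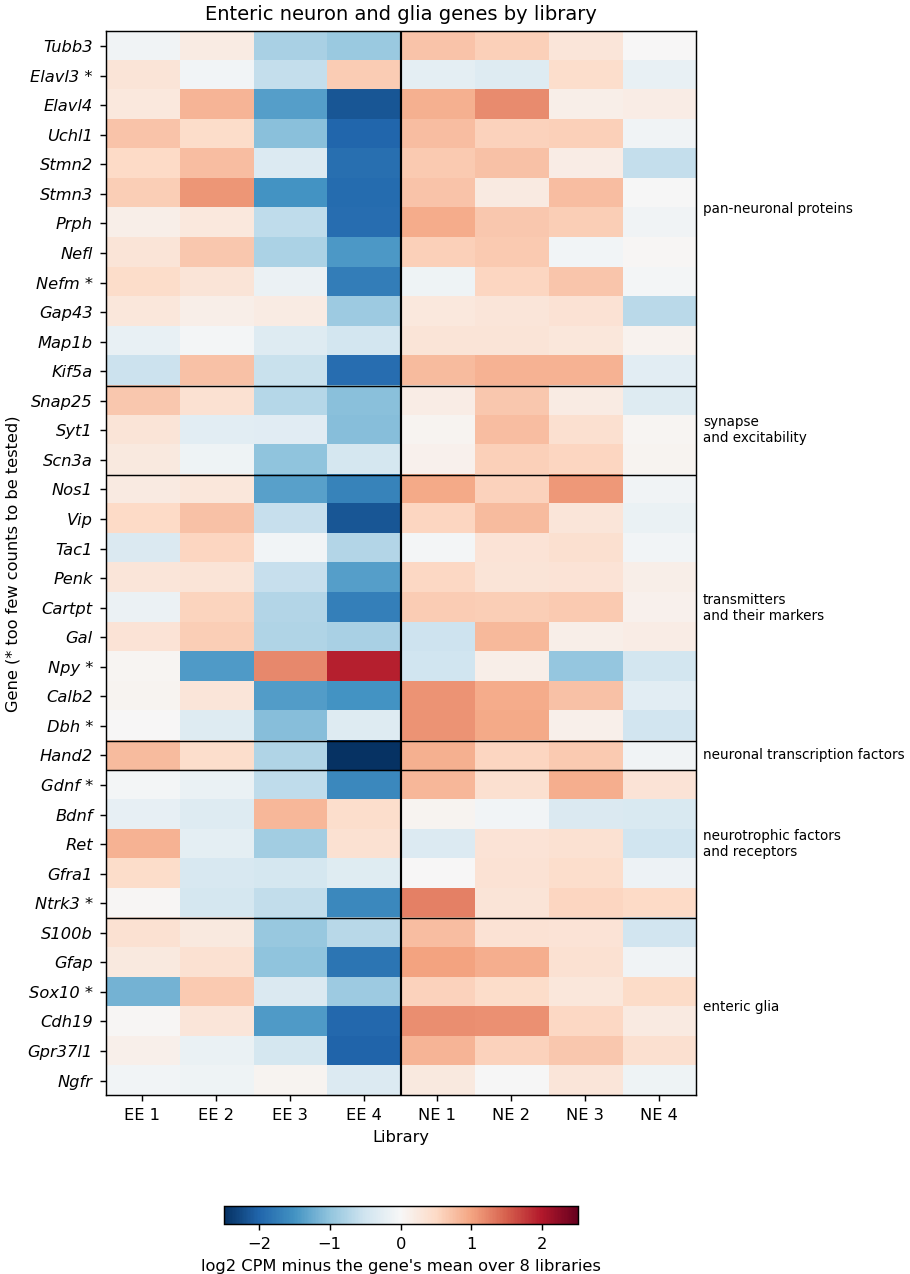
Heat map of the 36 genes in the table (rows, grouped by role) across the 4 EE and 4 NE libraries (columns); colour is the deviation of log2 CPM from the average of that gene in all 8 libraries. Blue is concentrated in EE 3 and EE 4, and Npy, Bdnf and Ret depart from that pattern.

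None of the 29 genes passed the test over the whole table. With edgeR's quasi-likelihood test 0 of 29 had a Benjamini-Hochberg adjusted p under 0.05, as had 0 of all 14311 genes (0%), and the lowest adjusted p was 0.520. Limma-voom also called 0 of the 29. DESeq2, which called 0.106% of the genes it adjusted, called 0 of 23 and gave no adjusted p to the other 6 (Nefl, Gap43, Cartpt, Bdnf, S100b and Gpr37l1). An unadjusted p under 0.05 was reached by 6 genes, all lower in EE, which is 20.7% of the 29 against 3.75% of all tested genes lower in EE. They were Map1b, Tubb3, Nos1, Calb2, Cdh19 and Gpr37l1. In either direction 9.48% of all tested genes reached it. The count depended on single libraries, as did the share over all tested genes. It was 2 without NE 1 (4.58% of all genes), 3 without NE 2 (4.97%), 3 without EE 4 (6.64%) and 3 without EE 3 (7.55%). It was 10 without EE 1 (10.4%) and 12 without EE 2 (18.8%). Without EE 4, 25 of 29 genes were still negative and the median was −0.30. Leaving out some single library turned the sign of the log2 fold change or moved it by over 1.5 times in 20 of the 29 genes, among them 16 without EE 4. The 9 genes in which no single library did so were Calb2, Cdh19, Gfap, Gpr37l1, Map1b, Nos1, Prph, Scn3a and Tubb3.

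**Figure D2:**
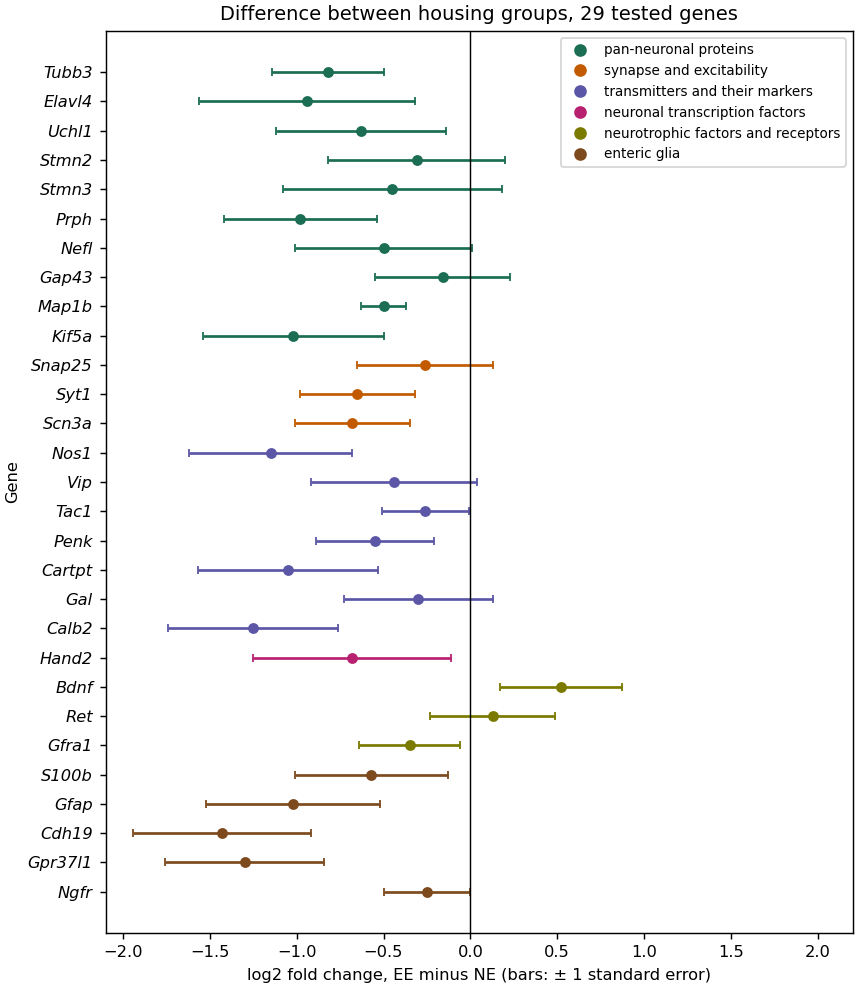
Log2 fold change, EE minus NE, of the 29 tested genes (points, coloured by role) with bars of 1 standard error. Bdnf and Ret lie above 0 and the other 27 below, and Map1b has the shortest bar.

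Transmitter genes are markers of neuron classes. Nos1 encodes the neuronal nitric oxide synthase of inhibitory motor neurons (chromosome 5, 117781032 to 117958840, plus strand, GRCm38). It was at 7.86, 8.23, 2.42 and 1.9 CPM in EE 1 to EE 4, against 13.3, 10.2, 14.5 and 6.3 CPM in NE 1 to NE 4. EE 1 and EE 2 lay above NE 4, so the groups overlapped. The log2 fold change was −1.15 (SE 0.47; adjusted p = 0.520, edgeR). Calb2, which encodes the calcium-binding protein calretinin found in many enteric neurons (chromosome 8, 110137502 to 110168210, minus strand), was at 3.82, 4.59, 1.21 and 1.11 CPM in EE libraries, against 8.37, 7.17, 6.29 and 2.98 CPM in NE libraries. The groups again overlapped only through NE 4. Its log2 fold change was −1.25 (SE 0.49; adjusted p = 0.520, edgeR).

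Vip encodes vasoactive intestinal peptide, which relaxes muscle and drives secretion (chromosome 10, 5639218 to 5647617, plus strand). Its values were 36.9, 43.6, 17.5 and 5.71 CPM in EE 1 to EE 4, against 38.2, 45.7, 32.4 and 23.2 CPM in NE 1 to NE 4. EE 1 and EE 2 matched the upper NE libraries and EE 4 was far below all others. The log2 fold change of −0.44 (SE 0.48; adjusted p = 0.727, edgeR) became −0.10 with EE 4 left out. Tac1, the precursor of substance P and neurokinin A in excitatory neurons, differed less between libraries, with 19.7, 37.3, 24.5 and 15.4 CPM in EE and 24.9, 32.5, 34.0 and 24.5 CPM in NE. The ratio of Vip to Tac1 was 1.87, 1.17, 0.716 and 0.371 in EE 1 to EE 4, against 0.946 to 1.53 in NE, so Vip was scarcer relative to Tac1 in EE 3 and EE 4 than in any NE library. The ratio of Vip to Nos1, both used by inhibitory neurons, was 4.7, 5.3, 7.25 and 3 in EE 1 to EE 4, against 2.24 to 4.49 in NE. These 2 markers of one class thus did not move alike, and the ratios do not measure the share of a neuron class.

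The remaining peptide genes were low. Penk, the enkephalin precursor, was at 7.24 ± 3.62 CPM in EE and 10.5 ± 1.11 CPM in NE. Gal, which encodes galanin, was at 3.24 ± 1.73 CPM in EE and 3.93 ± 1.57 CPM in NE. Cartpt, the precursor of CART peptide, had 5, 10, 4 and 1 counts in EE 1 to EE 4, against 13, 14, 22 and 8 in NE 1 to NE 4, and its log2 fold change was −1.05 (SE 0.52; adjusted p = 0.526, edgeR), with −1.67 when EE 2 and −0.68 when EE 4 was left out. Dbh, the enzyme that makes noradrenaline and in gut mainly a marker of sympathetic nerve fibres and a few neurons, was too low to test, at 0.909 ± 0.339 CPM in EE and 2.03 ± 1.09 CPM in NE. Npy, which encodes neuropeptide Y, ran the other way, with 5, 1, 18 and 30 counts in EE 1 to EE 4 and 4, 8, 4 and 4 counts in NE 1 to NE 4. Its 2 highest libraries were EE 3 and EE 4, where most other genes of the group were lowest. It too was below the filter on counts, and with no filter its log2 fold change was 1.69 (SE 0.72; adjusted p = 0.514, edgeR).

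Several peptide genes are known to answer to cyclic AMP through the cyclic AMP response element (CRE). Windows before the RefSeq starts of 4 transmitter genes are therefore shown. These 4 were chosen after their values and motif matches were seen. Each line gives the 250 bases before the RefSeq start site (GRCm38.p6), 5′ to 3′ on the gene's strand. Capitals mark the CRE half-site TGACG on either strand (CGTCA when read on the other strand) and the TATA box TATAAA.
Vip (chr10:5638968-5639217, plus strand): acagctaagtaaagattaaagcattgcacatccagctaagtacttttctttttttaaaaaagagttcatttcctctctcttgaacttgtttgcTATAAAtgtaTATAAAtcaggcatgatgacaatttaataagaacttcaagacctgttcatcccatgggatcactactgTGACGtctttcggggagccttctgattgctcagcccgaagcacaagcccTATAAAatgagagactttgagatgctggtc
Cartpt (chr13:99900684-99900933, minus strand): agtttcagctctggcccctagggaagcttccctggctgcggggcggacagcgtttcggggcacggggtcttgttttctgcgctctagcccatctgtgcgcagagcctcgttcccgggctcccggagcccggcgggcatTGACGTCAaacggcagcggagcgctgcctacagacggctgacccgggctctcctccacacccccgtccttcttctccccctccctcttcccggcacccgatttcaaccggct
Tac1 (chr6:7554811-7555060, plus strand): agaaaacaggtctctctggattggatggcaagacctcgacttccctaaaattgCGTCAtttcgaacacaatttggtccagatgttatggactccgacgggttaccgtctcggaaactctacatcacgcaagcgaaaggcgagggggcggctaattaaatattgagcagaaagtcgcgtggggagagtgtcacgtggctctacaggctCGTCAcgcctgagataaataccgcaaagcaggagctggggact
Nos1 (chr5:117866589-117866838, plus strand): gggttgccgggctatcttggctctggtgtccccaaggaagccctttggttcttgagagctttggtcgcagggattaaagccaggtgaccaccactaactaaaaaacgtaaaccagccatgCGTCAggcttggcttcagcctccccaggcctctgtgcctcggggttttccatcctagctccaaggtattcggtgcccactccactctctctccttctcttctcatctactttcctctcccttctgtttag

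Cartpt holds the full palindrome TGACGTCA, 112 to 105 bases before its RefSeq start, in which a half-site on each strand overlaps the other. Vip holds a half-site 79 to 75 bases before its start and a TATA box 30 to 25 bases before it. Tac1 holds half-sites at 197 to 193 and 43 to 39 bases, and Nos1 at 130 to 126 bases. The Nos1 window lies inside the gene, whose GENCODE annotation starts at base 117781032. The Cartpt window also lies inside its gene, which on the minus strand starts at base 99901091. The Tac1 window begins before the annotated start at base 7554879 and runs past it. Of the windows printed, only that of Vip wholly precedes the first annotated start. Whether any of them acts as a promoter was not tested. RefSeq windows were found for 23 of the 36 genes, 34 windows in all. A half-site was in 11 of these 34 (32.4%), against 17.8% of all 32851 windows, and TGACGTCA in 1 of 34, against 1.55%. Windows are not independent. The 11 belong to 9 genes, and 3 of them to Elavl4, of which 2 hold the same site in windows 16 bases apart. Searched on both strands, TATAAA was in 5 (14.7%, against 12.4%), the SOX core ACAAAG in 3 (8.82%, against 16.5%) and the E-box CATCTG of the HAND type in 9 (26.5%, against 14.4%). The PHOX2 core (0.247% of all windows) and the RE1 element of the repressor REST (0.0578%) were in 0 of the 34. The matches are letters and were not tested as sites.

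**Figure D3:**
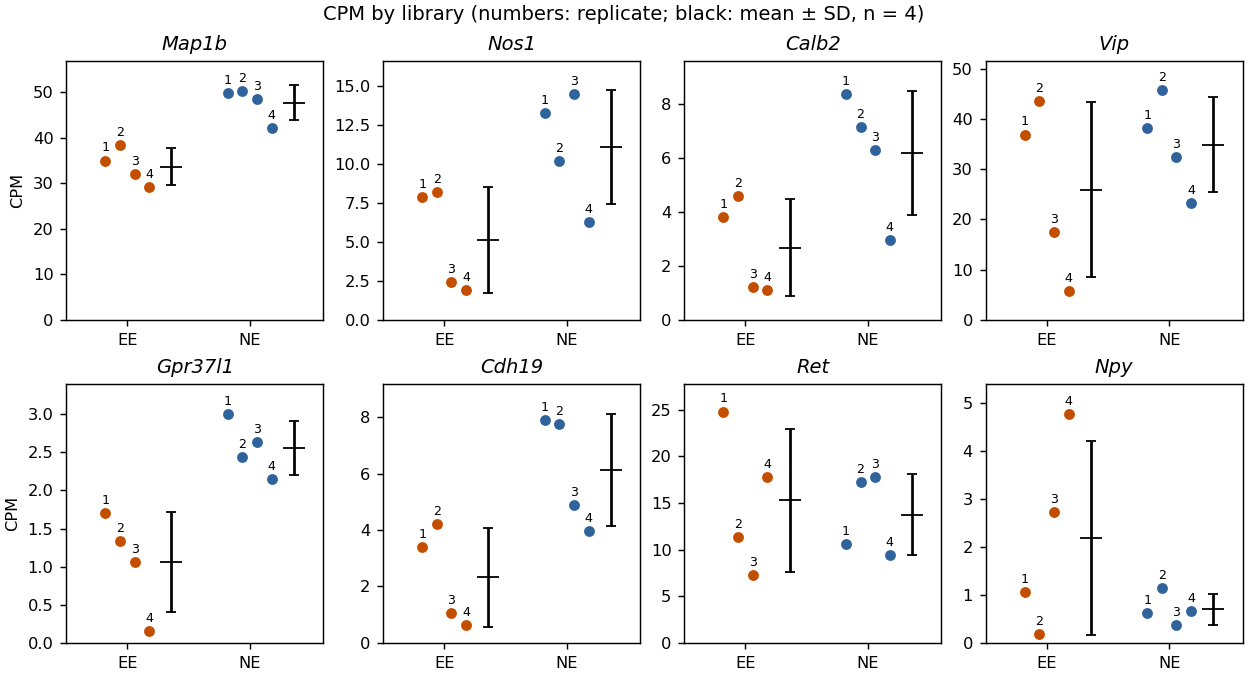
CPM of 8 genes in each library (points, numbered by replicate) for EE (left) and NE (right), with the mean and SD of 4 libraries in black; all axes start at 0. Map1b and Gpr37l1 are the 2 genes here whose groups do not overlap, EE 3 and EE 4 are low for Nos1, Calb2, Vip and Cdh19, and Npy is highest in EE 3 and EE 4.

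The genes listed as pan-neuronal encode cytoskeletal, RNA-binding and other proteins used as general markers of neurons, and all 10 tested ones had negative log2 fold changes. Map1b, a microtubule-associated protein of axons (chromosome 13, 99421446 to 99516540, minus strand), was at 35.0, 38.5, 32.0 and 29.2 CPM in EE 1 to EE 4, against 49.9, 50.3, 48.5 and 42.1 CPM in NE 1 to NE 4. Every EE library lay below every NE library, and EE 4 lay close to the other EE libraries. The log2 fold change was −0.50 (SE 0.13; adjusted p = 0.520, edgeR) and ran from −0.57 to −0.44 as single libraries were left out. Of the 29 genes only Map1b and Gpr37l1 had groups that did not overlap in this direction, against 2.02% of all tested genes. That count was 5 without EE 1, 7 without EE 2 and 11 without NE 4, where 3.75%, 8.24% and 6.23% of all tested genes separated.

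Tubb3, the neuronal beta-tubulin, was at 4.46, 5.55, 2.57 and 2.38 CPM in EE libraries, against 8.05, 7.31, 5.91 and 4.81 CPM in NE libraries, and its log2 fold change was −0.82 (SE 0.32; adjusted p = 0.520, edgeR). Prph, the intermediate filament peripherin of peripheral neurons, was at 3.48 ± 2.04 CPM in EE and 6.73 ± 1.89 CPM in NE. Kif5a, a kinesin motor of axonal transport, was at 2.12, 5.55, 2.12 and 0.634 CPM in EE libraries, against 5.84, 6.16, 6.1 and 2.65 CPM in NE libraries. Uchl1, the ubiquitin hydrolase PGP9.5 used to stain enteric neurons, was at 17.2, 14.4, 4.83 and 2.38 CPM in EE 1 to EE 4, against 17.8, 15.5, 15.7 and 9.78 CPM in NE 1 to NE 4. EE 1 lay inside the NE range and EE 4 far below it.

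Related genes of one family did not always stand alike. Elavl4, the RNA-binding protein HuD, had 14, 24, 5 and 2 counts in EE 1 to EE 4 and 30, 41, 29 and 17 counts in NE 1 to NE 4. Its relative Elavl3 (HuC) was near the floor, with 4, 3, 2 and 7 counts in EE and 3, 3, 10 and 3 in NE, and the low values of EE 4 were not seen in it. The stathmins Stmn2 and Stmn3, which destabilise microtubules, were at 5.13 ± 3.35 and 2.9 ± 2.75 CPM in EE and at 6.25 ± 2.38 and 3.79 ± 1.05 CPM in NE, and both were lowest in EE 4. The neurofilament gene Nefl was at 1.7 ± 1.21 CPM in EE and 2.34 ± 0.681 CPM in NE. Nefm, its neighbour on the other strand, had 0 counts in EE 4, which allows up to 0.476 CPM, and 4 to 14 counts in the other 7 libraries. Gap43, a growth cone protein, was at 2.05 ± 0.742 CPM in EE and 2.25 ± 0.729 CPM in NE, and its log2 fold change was −0.16 (SE 0.39; adjusted p = 0.880, edgeR), and 0.09 with EE 4 left out.

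Of the genes of synapse and excitability, Syt1 and Scn3a stood lower than the NE libraries in 3 of 4 EE libraries. Syt1, the calcium sensor of transmitter release, was at 3.9 ± 1.59 CPM in EE and 6.04 ± 1.57 CPM in NE. Scn3a, a sodium channel subunit, was at 2.75 ± 1.07 CPM in EE and 4.31 ± 0.878 CPM in NE. Snap25, a SNARE protein of synaptic vesicle fusion, was at 13.2, 10.7, 4.83 and 3.81 CPM in EE 1 to EE 4, against 9.32, 13.2, 9.48 and 6.46 CPM in NE 1 to NE 4. Hand2, a transcription factor needed for the final steps of enteric neuron differentiation, had 34, 29, 15 and 3 counts in EE and 49, 42, 70 and 23 counts in NE. Its EE 4 value was 0.0949 of the mean of the other EE libraries, the lowest such ratio of the 29 tested genes.

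Neurotrophic signalling genes did not follow the neurons as a group. Gdnf, the ligand that guides neural crest cells into the gut, had 5, 5, 4 and 1 counts in EE 1 to EE 4, against 14, 11, 25 and 9 counts in NE 1 to NE 4. Every EE library lay below every NE library in CPM. It was below the filter on counts, and with no filter its log2 fold change was −1.49 (SE 0.48; adjusted p = 0.514, edgeR). Ret, the receptor tyrosine kinase that GDNF engages, was at 24.8, 11.3, 7.25 and 17.8 CPM in EE, against 10.6, 17.2, 17.8 and 9.45 CPM in NE. Its 4 EE values spanned the whole NE range, EE 4 was not low, and the log2 fold change of 0.13 (SE 0.36; adjusted p = 0.896, edgeR) was −0.19 without EE 1 and −0.01 without NE 4. Gfra1, the co-receptor that presents GDNF to RET, was at 6.16, 3.25, 3.17 and 3.49 CPM in EE and 4.42, 5.73, 6.01 and 3.98 CPM in NE.

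Bdnf, a neurotrophin, was at 1.91, 1.72, 4.23 and 3.17 CPM in EE 1 to EE 4, against 2.37, 2.15, 1.69 and 1.66 CPM in NE 1 to NE 4, and its log2 fold change was 0.52 (SE 0.35; adjusted p = 0.594, edgeR), with 0.24 when EE 3 was left out. Like Npy it was highest in EE 3 and EE 4. Ntrk3, the receptor of neurotrophin-3, had 3, 2, 2 and 0 counts in EE, against 12, 6, 11 and 6 counts in NE, and every EE library lay below every NE library in CPM. With no filter its log2 fold change was −1.86 (SE 0.64; adjusted p = 0.514, edgeR). Over all 16130 genes 2.19% separated in this direction and 2.70% in the other, in which 0 of the 36 genes did.

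Glial genes had the lowest median log2 fold change of the roles with more than 1 tested gene, −1.02, and all 5 tested ones were negative. Gpr37l1, an orphan receptor of glia (chromosome 1, 135160234 to 135167681, minus strand), was at 1.7, 1.34, 1.06 and 0.159 CPM in EE 1 to EE 4, against 3, 2.44, 2.63 and 2.15 CPM in NE 1 to NE 4. The groups did not overlap, though EE 4 rests on 1 count. The log2 fold change was −1.30 (SE 0.46; adjusted p = 0.520, edgeR) and −0.91 without EE 4. Cdh19, a cadherin of neural crest-derived glia (chromosome 1, 110888326 to 110977584, minus strand), was at 3.4, 4.21, 1.06 and 0.634 CPM in EE, against 7.89, 7.74, 4.88 and 3.98 CPM in NE. EE 2 lay just above NE 4 and the other EE libraries below all NE libraries. Its log2 fold change was −1.43 (SE 0.51; adjusted p = 0.520, edgeR) and −1.11 without EE 4.

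Gfap, the glial filament protein, was at 2.41 ± 1.66 CPM in EE and 4.76 ± 1.63 CPM in NE. S100b, a calcium-binding protein of glia, was at 1.54 ± 0.799 CPM in EE and 2.22 ± 0.818 CPM in NE. Sox10, the transcription factor of neural crest and glia, had 1, 8, 4 and 2 counts in EE and 9, 9, 12 and 8 counts in NE and was not tested. Ngfr, the low-affinity neurotrophin receptor p75, varied least, with 2.76, 2.68, 3.02 and 2.22 CPM in EE, against 3.47, 2.87, 3.66 and 2.65 CPM in NE.

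Levels per length are given as CPM per kilobase of exon. Vip was highest in both groups, with 7.63 in EE and 10.3 in NE. Tac1 had 7.13 in EE and 8.53 in NE and Uchl1 had 5.94 in EE and 9 in NE, so Tac1 stood above Uchl1 in EE and below it in NE. Penk had 4.43 in EE and 6.43 in NE, Gal 4.12 in EE and 4.98 in NE. Npy had 3.86 in EE and 1.24 in NE. Vip and Tac1 did not differ beyond their spread between libraries. Nos1 was at 0.457 in EE and 0.991 in NE, Gpr37l1 at 0.469 in EE and 1.13 in NE, and Cdh19 at 0.543 in EE and 1.43 in NE.

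Other genes of the enteric nervous system that were not among the 40 stood lower too, though less evenly. Of 19 tested neuron genes 16 had negative log2 fold changes (median −0.37), of 6 glia genes 5 (median −0.37) and of 8 signalling genes 6 (median −0.33), and 0 passed edgeR's adjusted test, with 2, 0 and 1 genes at an unadjusted p under 0.05. Sv2a, a synaptic vesicle protein, was at 1.06, 1.53, 0.907 and 0.476 CPM in EE, against 2.53, 2.58, 1.88 and 1.82 CPM in NE, without overlap (log2 fold change −1.15, SE 0.37, edgeR adjusted p = 0.520). Ntrk2, the receptor of BDNF, was at 2.9 ± 2.07 CPM in EE and 5.7 ± 0.832 CPM in NE. Entpd2, an ectonucleotidase of glia, was at 4.47 ± 1.27 CPM in EE and 6.6 ± 0.919 CPM in NE. Vamp2, a vesicle fusion protein that other cell types also express, had higher values in EE, at 26.1 ± 5.11 CPM in EE and 19.9 ± 3.09 CPM in NE.

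Markers of other cells moved with these genes, and their part in the result was not tested. All 12 smooth muscle genes were negative (median log2 fold change −0.76). They summed to 4346, 4594, 2431 and 717 CPM in EE 1 to EE 4, against 5570.5, 5937, 5134 and 3682 CPM in NE 1 to NE 4, so the libraries stood in the same order as by their summed neuronal genes. All 8 tested enteroendocrine genes were negative (median −0.70), and the list summed to 221 to 336 CPM in EE and 311 to 487 CPM in NE. These hormone cells of the epithelium share some peptides with neurons. Of the 8 distal colon markers 7 were negative (median −0.40), and they summed to 3406, 5296, 1689.8 and 1767 CPM in EE 1 to EE 4, against 7191, 4194, 4062 and 3236 CPM in NE 1 to NE 4. The lowest sums were again those of EE 3 and EE 4. The 10 epithelial markers differed less, with 3 positive and 7 negative (median −0.10) and sums of 10364 to 16022 CPM in EE and 13561 to 17068 CPM in NE. The 6 fibroblast genes had a median of −0.18 and summed to 1095, 1762, 1929 and 439 CPM in EE and 1365 to 1617 CPM in NE. Fibroblast genes were thus not low in EE 3, where the neuronal and glial genes were. The 5 endothelial genes summed to 49.5 to 112 CPM in EE and 105 to 114 CPM in NE, the 3 genes of interstitial cells of Cajal to 195 to 321 CPM in EE and 301 to 342 CPM in NE, and 3 skeletal muscle genes to 9.67 to 21.1 CPM in EE and 16.8 to 26.8 CPM in NE.

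**Figure D4:**
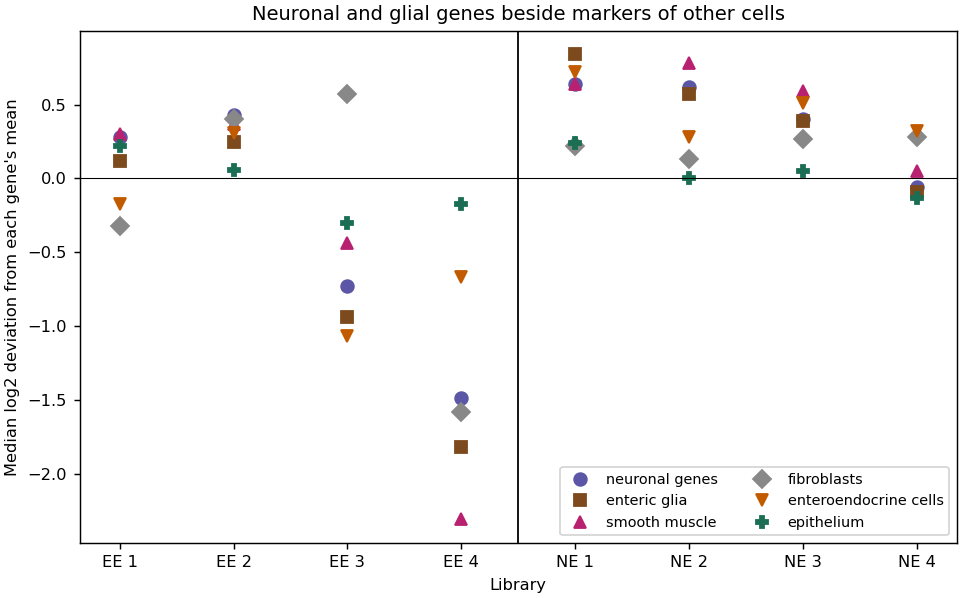
Median over genes of the deviation of log2 CPM from each gene's average (y axis), for each library (x axis, EE left of NE) and for neuronal and glial genes beside markers of other cells. Neuronal, glial and smooth muscle medians are lowest in EE 4 at −1.49, −1.82 and −2.31, while the epithelial median there is −0.17.

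Relative to smooth muscle, the summed neuronal CPM was slightly higher in EE than in NE, and far higher in EE 4. A few genes carry much of this sum. The 25 neuronal genes summed to 201, 231, 123 and 83.4 CPM in EE 1 to EE 4, against 244, 261, 235 and 168 CPM in NE 1 to NE 4. Per 1000 CPM of smooth muscle markers this was 46.3, 50.3 and 50.5 CPM in EE 1 to EE 3, against 43.8, 44, 45.9 and 45.5 CPM in NE 1 to NE 4. EE 4 alone stood apart, at 116, since its muscle markers were lower still than its neuronal genes. As sums, glial genes were lower relative to neuronal genes in EE. They made up 69.6, 68.8, 64.0 and 58.9 CPM per 1000 neuronal CPM in EE 1 to EE 4, against 103, 86.1, 78.9 and 84.1 CPM in NE 1 to NE 4. These ranges did not overlap with EE 4 or without it. The ratio rests on 6 glial genes that summed to 4.91 to 15.9 CPM in EE and 14.1 to 25.3 CPM in NE. It also rests on the same neuronal sum, and whether the ranges stay apart without Map1b, Tac1 and Npy was not tested.

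**Figure D5:**
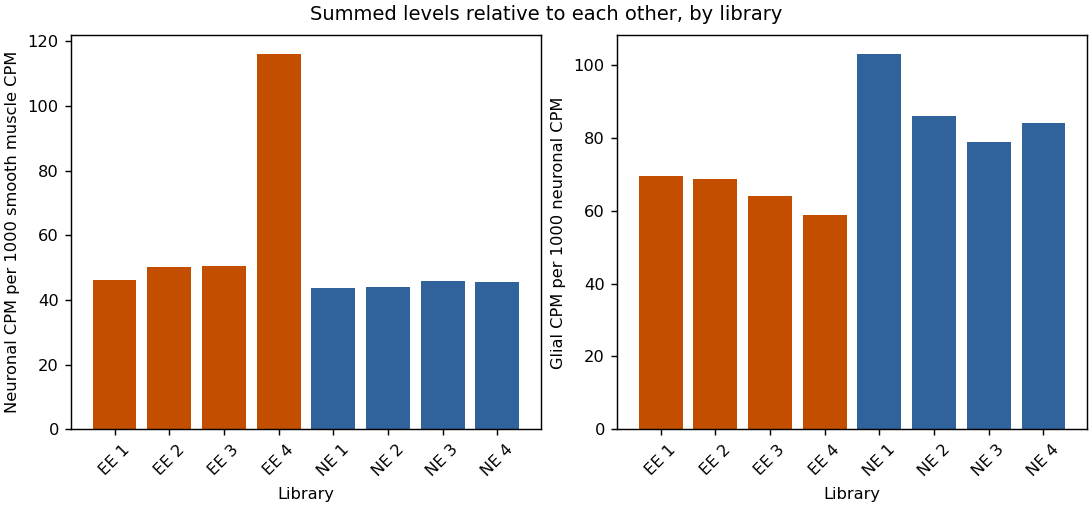
Bars of summed CPM ratios in each library, EE left of NE: neuronal per 1000 smooth muscle CPM (left panel) and glial per 1000 neuronal CPM (right panel). The left ratio lies between 43.8 and 50.5 outside EE 4 and is 116 in EE 4, and the right ratio is at most 69.6 in EE and at least 78.9 in NE.

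An FDR under 0.05 was given to 2 of the 36 genes in the authors' deposited table, both higher in the NE columns, against 2.39% of all 16130 genes there in either direction and 1.32% higher in the NE columns. The authors' deposited table gives Nos1 a log2 fold change of 0.70 with an FDR of 0.00826, and Cdh19 0.68 with an FDR of 0.0253. Calb2 follows in the authors' deposited table with 0.58 and an FDR of 0.0534. Map1b, the gene with the smallest p in edgeR, has an FDR of 0.283 in the authors' deposited table.

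Read assignment limits some of these values. The exons of 8 of the 36 genes (Bdnf, Gfra1, Hand2, Nefl, Nefm, Nos1, Penk and Uchl1) overlap a gene on the other strand in GENCODE M21, and whether the counting used the strand is not given in the sources used here. In 6 genes other than Nefl and Nefm, more than 5% of the 50-base windows, the length of a read, also occur in another gene's transcript. Nefl and Nefm share 1108 exonic bases with each other. The window search did not count sharing between 2 of the 36 genes on opposite strands, so no share is given for this pair. In these 6 the share was 15.8% for Hand2, 12.7% for Bdnf, 12.6% for Uchl1, 8.6% for Penk and 6.66% for Gfra1, each shared with an antisense transcript, and 6.49% for Scn3a, shared with other sodium channels. Tubb3 shared none.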

How the data were processed

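Per the labels' protocols, total RNA from 8 distal colon samples was depleted of ribosomal RNA and sequenced from 1 end of strand-marked libraries, with reads of 50 bases. Novoalign, DESeq and the build mm10 are named, without a role, in the submitters' processing notes. Neither the annotation nor the counting program is given in the sources used here. The authors deposited 1 table with a whole-number count per gene and library, next to their own log2 fold change and FDR (an adjusted p-value).

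Groups and replicate numbers came from the sample titles. The 40 genes and the lists beside them were chosen with earlier results of these data known. The whole table was fitted in edgeR 4.0.16 (R 4.3.3). Its filterByExpr step left 14311 genes and TMM gave the library sizes. The robust quasi-likelihood test set EE against NE, with Benjamini-Hochberg adjustment over all genes and a threshold of 0.05. CPM are counts over the TMM-scaled library size, and a prior count of 2 was added for log2 CPM. Floors are 3 counts and cover counting error only. Outside the 40, the genes named were the 3 tested genes with the smallest p of each related list, and up to 3 genes with the highest mean CPM of each marker list. Some genes that this rule names are not reported here. The 4 windows printed were chosen after seeing the data. Alternatives were DESeq2 1.42.0, limma-voom (limma 3.58.1), other scalings and filters, the replicate number as a block, and each library left out. The tests were checked on simulated counts. There edgeR recovered 51 of 98 2-fold and 88 of 99 4-fold changes with 6 false calls. Limma-voom recovered 52 and 88 with 3 false calls, and DESeq2 65 and 93 with 37 false calls. Changes of 2-fold can thus be missed by edgeR, and some DESeq2 calls can be false. Exon lengths came from GENCODE M21 (GRCm38, the assembly also called mm10) and promoters from RefSeq GRCm38.p6.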

Additional observations from a re-analysis of the deposited data

Results flagged for a closer look

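In 78 groups of 4 values, 7 held 1 library far from the other 3, where chance gives about 1 in 20 groups. In EE, Gap43 was low in EE 4 at 0.951 CPM, against 2.3 to 2.55 CPM in the other EE libraries, and Gfra1 was high in EE 1 at 6.16 CPM, against 3.17 to 3.49 CPM. In NE, NE 4 was low for Gap43 at 1.16 CPM (others 2.53 to 2.72 CPM), for Kif5a at 2.65 CPM (others 5.84 to 6.16 CPM) and for Cartpt at 1.33 CPM (others 2.01 to 2.06 CPM). Elavl3 was high in NE 3 at 0.938 CPM and Ntrk3 in NE 1 at 1.89 CPM, both from 12 or fewer counts.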

How the results depend on the processing

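Over 15 alternatives 0 of the 29 tested genes passed an adjusted p under 0.05, though DESeq2 gave 6 of them no adjusted p. The direction of single genes held in 430 of 435 recomputed values. The exceptions were Ret (−0.03 with limma-voom, −0.19 without EE 1, −0.01 without NE 4), Stmn2 (0.04 without EE 4) and Gap43 (0.09 without EE 4). With single libraries left out, these ran from −0.19 to 0.38 for Ret, −0.69 to 0.04 for Stmn2 and −0.36 to 0.09 for Gap43, and the cause was not tested. Over the whole table DESeq2 called 14 genes, none of them among the 29, and leaving out single libraries gave 0 to 1 genes. Genes of the 29 with an unadjusted p under 0.05 numbered 14 with limma-voom (10.9% of all genes), 11 with the replicate number as a block (9.82%), and 2 to 12 with single libraries left out (4.58% to 18.8%). The replicate numbers share only a label: same-numbered libraries had correlations of 0.254, 0.0101, −0.18 and −0.0374 between their deviations from the group means. The median log2 fold change ran from −0.83 to −0.30 without single libraries and was −0.76 with limma-voom. Genes without overlap between the groups numbered 2 to 11 without single libraries, an alternative chosen after seeing the data, as was the fit with no filter for the 7 genes with few counts. Between 35 and 2200 counts per gene over the 8 libraries limit the precision, and 8 genes had fewer than 100.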
